A study of Mus musculus with 8 samples.

Results

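LINE-1 (L1) retrotransposons are repeats that move by copying their own RNA back into DNA, and rodent genomes hold many copies of many ages. The rodent LINE-1 repeat names were those beginning with L1Md, L1_Mus, L1_Mur, L1_Mm, L1_Rod, L1VL or Lx, selected by name and not by any measured value. The selection gave 39 names, and all 39 stood in both repeat tables, of 767 names in the knockdown table and 834 in the overexpression table. Of the 39, 6 were the young types L1Md_A, L1Md_T, L1Md_Gf, L1Md_F, L1Md_F2 and L1Md_F3, and 33 were older. The older names comprised 5 L1_Mus and L1_Mm names, 4 L1_Mur and L1_Rod names, 3 L1VL names and 21 Lx names.

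The RNA came from J1 cells, a mouse embryonic stem (ES) cell line, in 8 libraries that formed 4 groups of 2. KD Zscan4 cells carried a short hairpin RNA against Zscan4 in the pSuper puro vector, and KD control cells carried a random control; both were selected with 2 µg/ml puromycin for 7 days. OE Zscan4 cells carried the coding sequence of Zscan4c, a zinc finger gene of the 2-cell embryo, in the pCMV-tag2 vector, and both OE Zscan4 and OE control cells were selected with 500 µg/ml G418 for 10 days. All groups received 1000 ng of plasmid 24 h before selection, were grown in 15% serum with 10 ng/ml leukaemia inhibitory factor, and were picked as single clones. The labels do not say whether the libraries of a group were grown from separate clones, so p-values capture only the spread between libraries, which may be technical. The limma fits used here pool that spread over the rows of a table, so a small p-value does not rest on the libraries of that name alone. The labels give no further detail of the OE control plasmid.

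A full-length LINE-1 carries an internal promoter in its 5′ untranslated region, an RNA-binding ORF1 protein and an ORF2 protein that cuts DNA and makes the new copy by reverse transcription. In the mouse, the A, T and Gf types are known for copies that can still move, while F types, counted here with the young names, and the Lx and L1_Mus groups are mostly inactive relics. Mouse ES cells keep most copies silent through DNA methylation and histone H3 lysine 9 methylation, and LINE-1 RNA is also abundant in early embryos. No LINE-1 consensus or genome sequence was used here, so names are given without sequences.

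A repeat name pools the reads of all its copies. How reads that match several copies were assigned, and whether strand was used, is not given in the sources used here. The value of a name was therefore read within that name between groups, and near-identical young types may share reads. Reads from old copies inside introns or untranslated regions of genes would also be counted. In these bulk samples, fewer cells of a type and less RNA per cell cannot be told apart.

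Libraries held about 17392200 to 22381600 gene reads, 305226 to 470404 reads on repeat names and 20552 to 37647 reads on LINE-1 names. The fewest reads of any LINE-1 name in a library were 19 in the knockdown arm and 10 in the overexpression arm. The 9 Zscan4 family genes, near-identical copies that may share reads, summed to 97.4 to 136 normalised reads in KD Zscan4 libraries, against 3336 to 3752 in KD control libraries. The same sum was 5311 to 5878 in OE Zscan4 libraries and 360 to 389 in OE control libraries, so the family moved as the labels say in both arms. All 8 ES cell markers, Pou5f1 and Nanog among them, were present in every library, with no value under 2007 normalised reads. The libraries of a group differed beyond sampling noise over repeat names (chi-square statistics of 1.43 to 2.83 per degree of freedom), and each was counted separately. Over the 39 LINE-1 names this figure was 5.33 between the KD Zscan4 libraries, against 1.43 to 1.88 between the libraries of the other 3 groups, so the KD Zscan4 libraries stood farther apart than any other pair.

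The scaling of the libraries bears on every LINE-1 value. The deposited values carry one scaling factor per library. With these, all repeat names had a median log2 fold change of 0.26 in the knockdown arm, against -0.01 in the overexpression arm. Trimmed-mean (TMM) factors computed over repeat names placed the medians at 0.01 in both arms. The deposited values stood at 1.03 and 1.16 times the TMM scale in KD Zscan4 libraries, against 0.930 and 0.901 times in KD control libraries. In the overexpression arm the factors were 0.985 and 1.00 in OE Zscan4 libraries, and 0.896 and 1.13 in OE control libraries. Both scalings are reported, and the share of LINE-1 signal that came from young names is given because no library factor enters it.

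In the knockdown, 2 young types fell with the deposited scaling and none of the 39 names rose. Among all 767 names, 2.87% were called lower and 6.0% higher, at a false discovery rate of 0.05. L1Md_Gf, one of the types able to move, had 43.6 and 51.2 normalised reads in KD Zscan4 libraries, against 90.6 and 87.9 in KD control libraries. Its log2 fold change was -0.90 ± 0.22 (SE, n = 2 libraries each; limma adjusted p = 0.0118), and the groups did not overlap. L1Md_T had 2094 and 2999 normalised reads in KD Zscan4 libraries, against 3723 and 3229 in KD control libraries (log2 -0.47 ± 0.13, SE; limma adjusted p = 0.0238). Both libraries of L1Md_T in KD Zscan4 lay under both controls, although replicate 2 was close to the lower control. With KD Zscan4 replicate 1 left out, L1Md_T did not pass (log2 -0.21; limma adjusted p = 0.0698), and with KD Zscan4 replicate 2 left out it did (-0.73; 8.56e-06). It also did not pass with KD control replicate 1 left out (-0.37; limma adjusted p = 0.339) or KD control replicate 2 left out (-0.57; 0.173). L1Md_Gf lost its call without KD control replicate 1 (-0.88; limma adjusted p = 0.0775) and without KD control replicate 2 (-0.93; 0.13). All adjusted p-values here come from limma fits over every name or gene of a table.

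L1Md_A, the other type with copies able to move, had 1830 and 2975 normalised reads in KD Zscan4 libraries and 3252 and 2779 in KD control libraries. Replicate 2 of KD Zscan4 lay between the controls, so the groups overlapped, and the log2 value of -0.37 ± 0.15 (SE) did not pass (limma adjusted p = 0.103). With KD Zscan4 replicate 1 left out it was -0.015 (limma adjusted p = 0.912), and with KD Zscan4 replicate 2 left out -0.72 (1.93e-05), so whether L1Md_A passed depended on which KD Zscan4 library was used. The F types were also not called. L1Md_F had 89.2 and 152 normalised reads in KD Zscan4 libraries and 127 and 112 in KD control libraries (log2 fold change -0.03). L1Md_F2 had 2740 and 3400 in KD Zscan4 libraries and 2817 and 2684 in KD control libraries (0.15), and L1Md_F3 had 649 and 896 in KD Zscan4 libraries and 923 and 784 in KD control libraries (-0.16). L1Md_F3 passed without KD Zscan4 replicate 2 (-0.39; limma adjusted p = 0.0287).

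The 2 falls were 2 of the 6 young names and none of the 33 older ones, so 5.13% of the 39. At an unadjusted p under 0.05, 3 LINE-1 names were lower and 9 higher, the 9 being older names. The share of all names at that threshold was not computed. Of all 767 names, 594 had a positive fold change, as did 30 of the 39. Of the 39 names, 4 were lower with no overlap of the groups, where 10.0% of all names were, and 13 were higher with no overlap, where 48.2% of all names were. The median log2 fold change was -0.26 for young names and 0.23 for older names, beside 0.26 for all names. The older median thus lay close to that of the whole table, and the young median lay 0.49 under the older one.

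With TMM scaling, 4 names fell in the knockdown and none rose, beside 4.04% lower and 0.391% higher among all names. L1Md_T (-0.72 ± 0.10, SE; limma adjusted p = 0.00168) and L1Md_Gf (-1.15 ± 0.17; limma adjusted p = 0.00279) again fell. L1Md_A then fell too, at 1780 and 2564 normalised reads in KD Zscan4 libraries against 3497 and 3085 in KD control libraries (-0.62 ± 0.14, SE; limma adjusted p = 0.0264). The 4th was the older Lx3_Mus, at 226 and 226 normalised reads in KD Zscan4 libraries against 314 and 313 in KD control libraries (-0.47 ± 0.10, SE; limma adjusted p = 0.0257). The log2 fold change of L1Md_F2 was -0.11 with TMM scaling, the opposite sign to 0.15 with the deposited one, and it passed with neither. Groups did not overlap for 17 names that were lower, where 23.6% of all names were, and for 4 that were higher, where 24.5% were.

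Without 1 library, the knockdown counts of falls and rises moved on either scaling. The share of all names called in such fits was not computed, so the counts are not given. With the deposited scaling, the young median minus the older one was -0.34 without KD Zscan4 replicate 1 and -0.62 without KD Zscan4 replicate 2. It was -0.45 without KD control replicate 1 and -0.52 without KD control replicate 2. With KD control replicate 1 left out, L1Md_A did not pass on the TMM scale (-0.53; limma adjusted p = 0.113). Where a library was left out, the lone library of its group was assumed to vary like those of the other group.

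**Figure D1:**
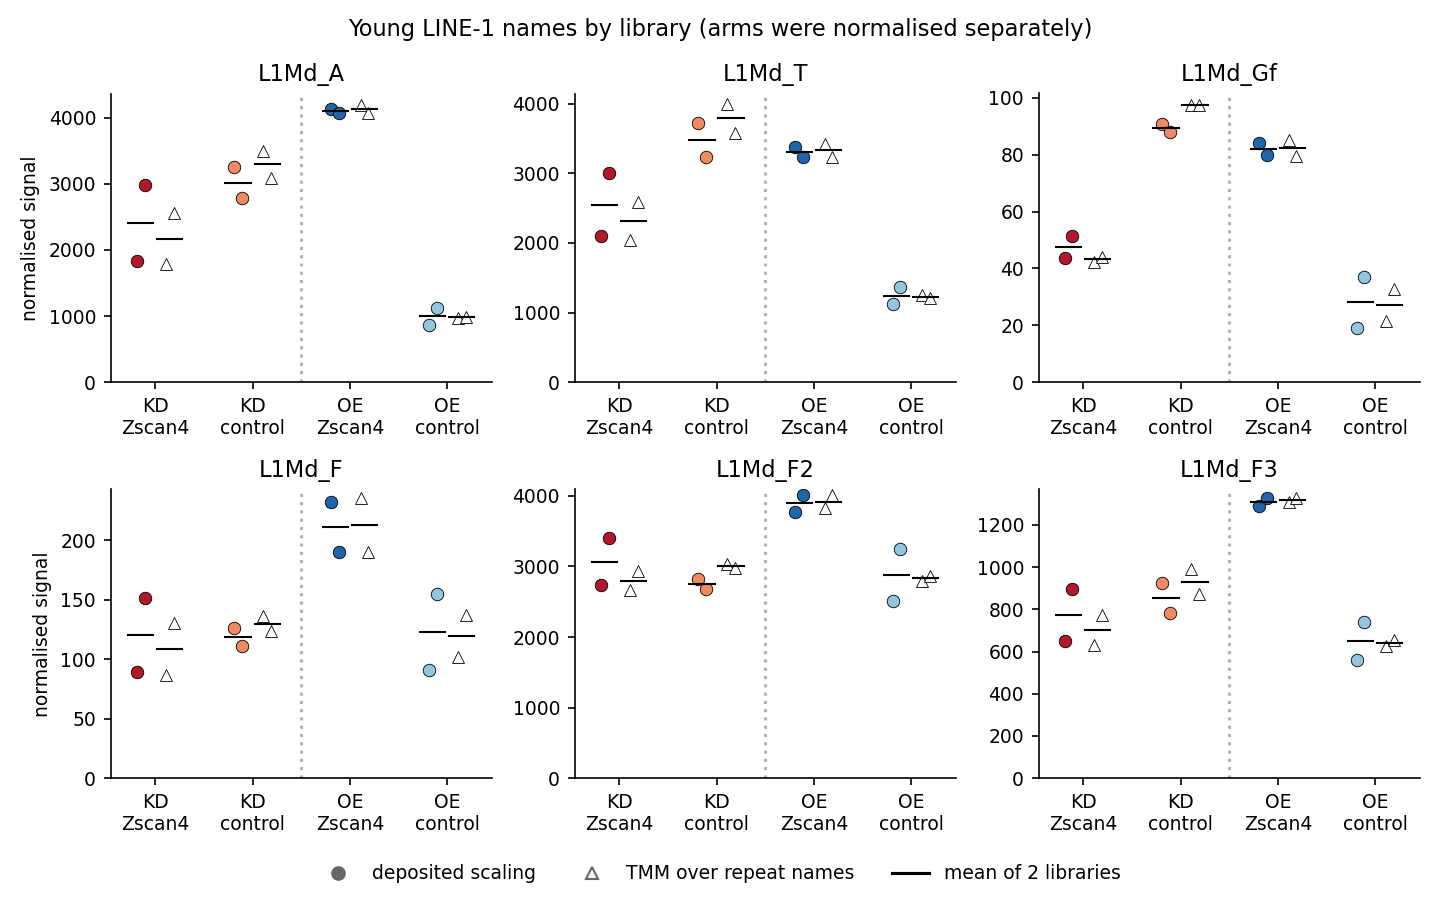
Normalised signal (reads per library on each scaling, linear axes from 0) of the 6 young LINE-1 names in KD Zscan4, KD control, OE Zscan4 and OE control, with circles for deposited scaling, triangles for TMM scaling and a line at each mean of 2 libraries. The OE Zscan4 points stand above the OE control points for all 6 names, while with deposited scaling KD Zscan4 and KD control are apart for L1Md_T and L1Md_Gf and overlap for L1Md_A.

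In the overexpression, 5 of the 6 young types and 1 older name rose with the deposited scaling, and none of the 39 fell. Among all 834 names, 2.52% were called higher and 1.32% lower. L1Md_A had the largest rise of the 39 names, with 4135 and 4072 normalised reads in OE Zscan4 libraries against 871 and 1117 in OE control libraries. This was a 4.16-fold difference (log2 2.06 ± 0.21, SE, n = 2 each; limma adjusted p = 4.23e-20), the rank 4 highest of all 834 names. L1Md_Gf had 84.0 and 79.7 normalised reads in OE Zscan4 libraries against 19.2 and 36.9 in OE control libraries (log2 1.58 ± 0.30, SE; limma adjusted p = 9.34e-06), rank 8. L1Md_T had 3374 and 3241 in OE Zscan4 libraries against 1120 and 1367 in OE control libraries (log2 1.42 ± 0.21, SE; limma adjusted p = 1.85e-09), rank 10. For all 3 of these types both OE Zscan4 libraries lay above both controls, and the OE Zscan4 libraries lay close together.

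The fold changes of the F types were smaller than those of A, T and Gf, a difference that was not tested. L1Md_F3 had 1289 and 1329 normalised reads in OE Zscan4 libraries against 561 and 742 in OE control libraries (log2 1.02 ± 0.21, SE; limma adjusted p = 1.04e-04). L1Md_F had 232 and 190 in OE Zscan4 libraries against 91.0 and 155 in OE control libraries (log2 0.82 ± 0.24, SE; limma adjusted p = 0.0205). The log2 value of L1Md_F was 0.44 without OE control replicate 1 and 1.20 without OE control replicate 2. L1Md_F2 had 3770 and 4014 in OE Zscan4 libraries against 2503 and 3242 in OE control libraries, and its 0.45 ± 0.21 (SE) did not pass (limma adjusted p = 0.337). The log2 value of L1Md_F2 was 0.26 without OE control replicate 1 and 0.64 without OE control replicate 2. The older Lx2B2 rose, with 850 and 817 normalised reads in OE Zscan4 libraries against 423 and 571 in OE control libraries (log2 0.76 ± 0.21, SE; limma adjusted p = 0.0147). The groups of all 6 young names and of Lx2B2 did not overlap, with OE Zscan4 above.

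The 6 rises were 15.4% of the 39 names. None of the 39 fell by limma, where 1.32% of all names were called lower. Groups did not overlap, with OE Zscan4 higher, for 23 of the 39 names, where 20% of all names did so. The median log2 fold change was 1.22 for young names and 0.30 for older ones, beside -0.01 for all names, and the young median lay 0.92 above the older one.

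With TMM scaling, all 6 young names and 19 of the 33 older ones rose in the overexpression, 64.1% of the 39 names where 8.87% of all names were called higher and 3.48% lower. L1Md_F2 then rose (log2 0.47 ± 0.04, SE; limma adjusted p = 5.54e-08). The fold changes themselves barely moved (L1Md_A at 2.07, the young median at 1.24 and the older median at 0.32), while the standard errors became smaller. With the deposited scaling, OE control replicate 2 had exceeded replicate 1 for all 6 young names, and with TMM the OE control libraries lay at 972 and 987 normalised reads for L1Md_A. Groups did not overlap, with OE Zscan4 higher, for 31 of the 39 names, where 27.7% of all names did so.

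L1Md_A rose in every alternative that was run (log2 1.88 to 2.24). The log2 values of the other names that rose with the deposited scaling stayed positive over the alternatives. They ran from 1.27 to 1.56 for L1Md_T, from 1.13 to 2.04 for L1Md_Gf and from 0.82 to 1.22 for L1Md_F3. For L1Md_F they ran from 0.44 to 1.20, and for Lx2B2 from 0.54 to 0.98. The deposited-scale calls of these names were lost with either OE Zscan4 library left out. In those fits the spread was measured between the OE control libraries alone. The count of rises moved with a library left out on either scaling. The share of all names called in such fits was not computed, so the counts are not given. Without OE Zscan4 replicate 1 or 2, L1Md_F (limma adjusted p = 0.209 and 0.0701) and L1Md_Gf (0.0849 and 0.0584) lost their TMM calls, while L1Md_A, L1Md_T, L1Md_F2, L1Md_F3 and Lx2B2 passed.

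**Figure D2:**
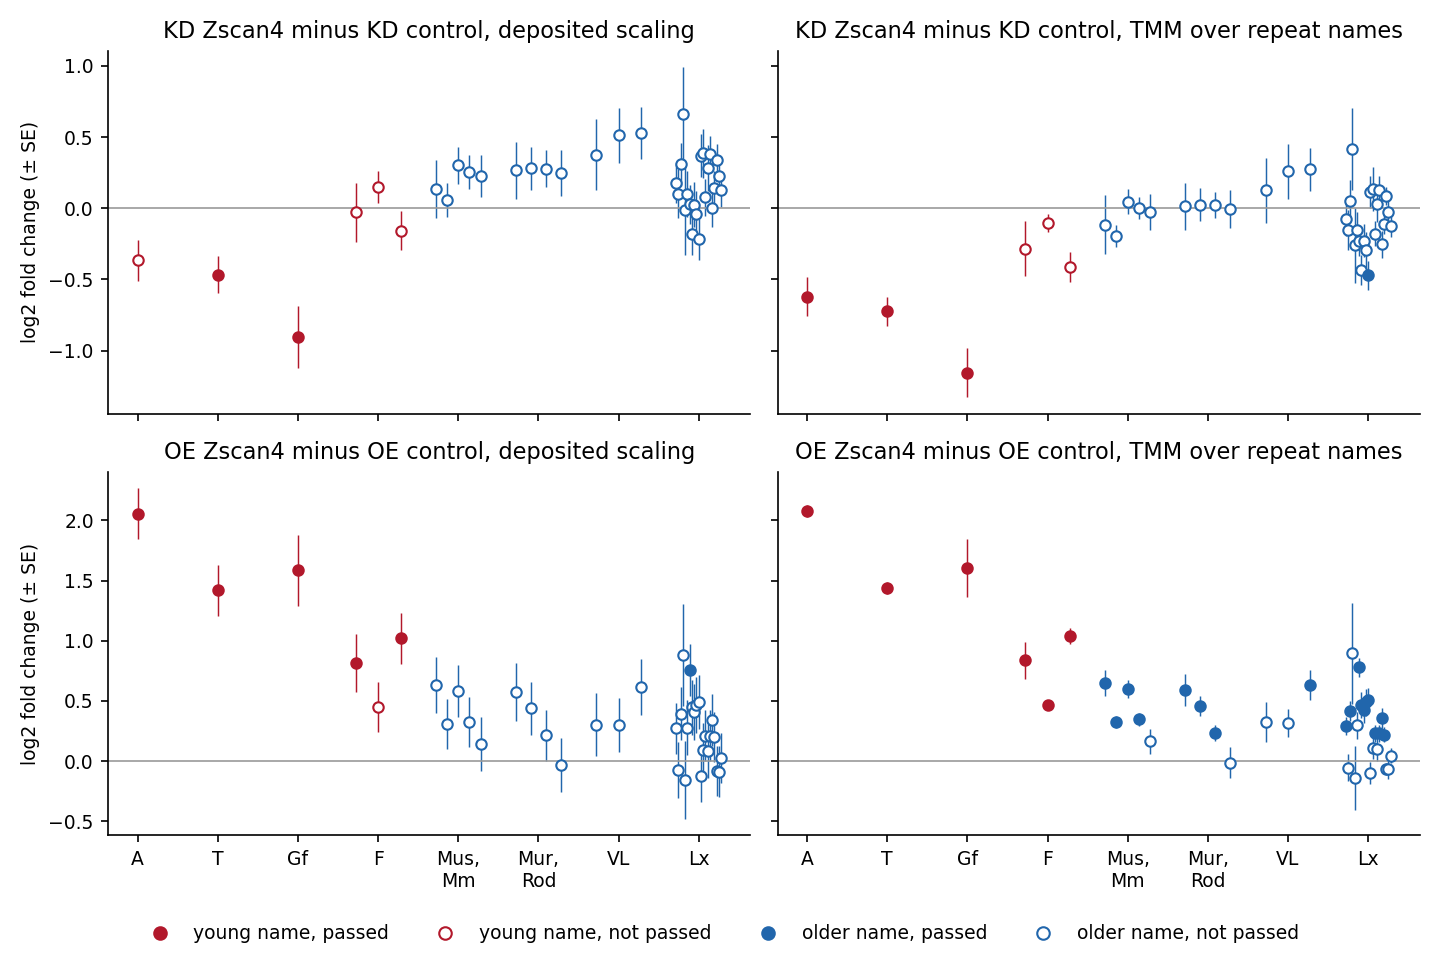
Log2 fold change with its standard error for each of the 39 LINE-1 names by class, KD Zscan4 minus KD control above and OE Zscan4 minus OE control below, with deposited scaling on the left and TMM scaling on the right; filled points passed the limma test. With deposited scaling the A, T and Gf types lie between -0.90 and -0.37 in the knockdown and between 1.42 and 2.06 in the overexpression, outside most older names.

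The share of LINE-1 signal held by young names differed by group without any library factor. It was 34.1% and 37.1% in KD Zscan4 libraries against 42.9% and 41.8% in KD control libraries, a mean difference of -6.73 percentage points. In OE Zscan4 libraries it was 36.6% in both, against 24.2% and 22.8% in OE control libraries, a difference of 13.1 points. The 95% Wilson intervals cover counting error alone and take the recovered unit of each library as a single read. They reached at most 0.674 points to either side, and the groups did not overlap in either arm. With 2 libraries a group an exact permutation test cannot go below p = 1 in 3, so the shares are given without a test.

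The difference lay with the A, T and Gf types. Together they held 18.2% and 21.4% of LINE-1 signal in KD Zscan4 libraries against 27.7% and 26.3% in KD control libraries, and 21.6% and 20.9% in OE Zscan4 libraries against 9.40% and 8.62% in OE control libraries. The F types held between 14.1% and 15.9% in all 8 libraries. L1Md_A was 0.668 and 0.875 times L1Md_F2 in KD Zscan4 libraries and 1.15 and 1.04 times in KD control libraries. The same ratio was 1.10 and 1.01 in OE Zscan4 libraries and 0.348 and 0.345 in OE control libraries.

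The 2 control groups differed from each other as well. Young names held 42.9% and 41.8% of LINE-1 signal in KD control libraries but 24.2% and 22.8% in OE control libraries, and the OE Zscan4 value of 36.6% lay between them. The arms differ in vector, drug and days of selection, which cannot be told apart here, and their tables were normalised separately, so no test was made across the controls. LINE-1 names as a whole held 6.96% and 7.87% of all repeat signal in KD Zscan4 libraries against 7.13% and 6.73% in KD control libraries. They held 8.05% and 8.0% in OE Zscan4 libraries against 6.17% and 6.70% in OE control libraries.

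Counted per 1000000 gene reads, young names had 375 and 542 reads in KD Zscan4 libraries against 560 and 494 in KD control libraries, so these groups overlapped. They had 621 and 616 in OE Zscan4 libraries against 265 and 361 in OE control libraries, which did not overlap. Older names had 726 and 918 reads per 1000000 gene reads in KD Zscan4 libraries and 745 and 688 in KD control libraries. In OE Zscan4 libraries they had 1077 and 1066, which lay between the 833 and 1224 of the OE control libraries.

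**Figure D3:**
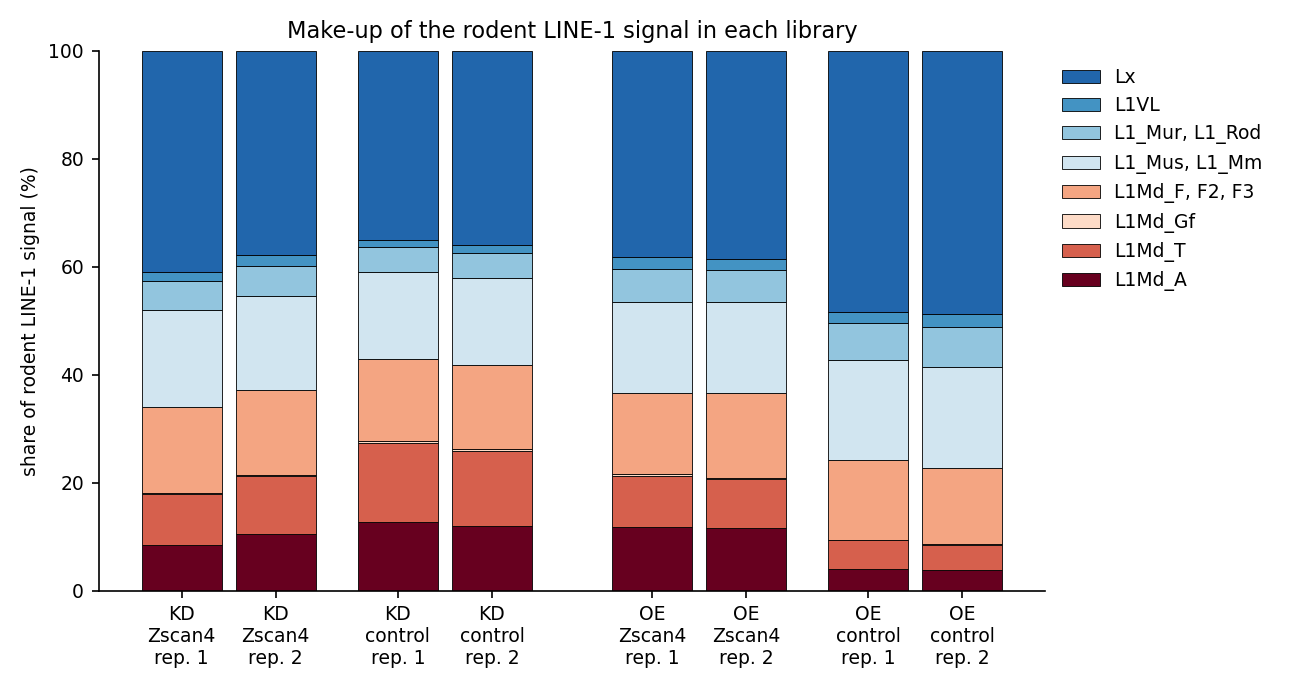
Share of the summed LINE-1 signal of each library, in percent, held by each class of names (stacked bars to 100%), KD Zscan4 beside KD control and OE Zscan4 beside OE control. The A and T parts are smaller in KD Zscan4 than in KD control and larger in OE Zscan4 than in OE control, and the F part stays between 14.1% and 15.9%.

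Among older names, the class medians with the deposited scaling in the overexpression were 0.33 for L1_Mus and L1_Mm, 0.33 for L1_Mur and L1_Rod, 0.30 for L1VL and 0.21 for Lx. In the knockdown the same medians were 0.23, 0.27, 0.51 and 0.13, and with TMM scaling -0.03, 0.02, 0.26 and -0.13. The 3 older names of highest total signal, not corrected for length or copy number, were L1_Mus1, Lx8 and L1_Mus3. Lx8 had 2534 and 2476 normalised reads in OE Zscan4 libraries and 2263 and 3103 in OE control libraries, and 1771 and 2089 in KD Zscan4 libraries against 1544 and 1493 in KD control libraries. It passed with neither scaling in either arm. L1_Mus1 (log2 0.31) and L1_Mus3 (0.33) did not pass in the overexpression with the deposited scaling and rose with TMM scaling (0.33 ± 0.05 and 0.35 ± 0.06, SE; limma adjusted p = 8.55e-05 and 2.27e-04).

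With TMM scaling, the 8 older names with the largest rises in the overexpression were Lx2B2 (0.78), L1_Mm (0.65), L1VL4 (0.63), L1_Mus2 (0.60), L1_Mur1 (0.59), Lx3_Mus (0.51), Lx3C (0.49) and Lx3A (0.47). Lx names split by number, a division made after their values were seen and given without a test. The 9 Lx2 and Lx3 names had a median log2 fold change of 0.47 in the overexpression and -0.23 in the knockdown with TMM scaling. The 11 names from Lx4 to Lx10 had medians of 0.10 and -0.03 in these arms. In the overexpression, 6 of the 9 and 4 of the 11 rose with TMM scaling. With the deposited scaling the medians of the 9 were 0.45 in the overexpression and 0.03 in the knockdown, those of the 11 were 0.08 and 0.23, and 1 of the 9 and 0 of the 11 rose in the overexpression.

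The difference between the effects of the arms was tested for the 763 names present in both tables, as the overexpression log2 fold change minus the knockdown one. With the deposited scaling it passed for 5 of the 39 LINE-1 names, all higher in the overexpression, where 3.54% of the 763 names were called higher and 4.19% lower. The 5 were L1Md_Gf (a difference of 2.49 ± 0.39, SE; limma adjusted p = 1.24e-08), L1Md_A (2.42 ± 0.22; limma adjusted p = 4.56e-26), L1Md_T (1.89 ± 0.22; limma adjusted p = 6.81e-16), L1Md_F3 (1.18 ± 0.23; limma adjusted p = 1.22e-05) and Lx2B2 (0.73 ± 0.24; limma adjusted p = 0.0282). L1Md_F, at 0.85 ± 0.30 (SE), missed the threshold (limma adjusted p = 0.0568), and L1Md_F2, at 0.30 ± 0.22, did so as well (limma adjusted p = 0.441). The count that passed moved with a library left out. Over the alternatives the difference ran from 2.07 to 2.77 for L1Md_A, 2.03 to 2.94 for L1Md_Gf and 1.63 to 2.16 for L1Md_T. It ran from 0.94 to 1.45 for L1Md_F3, 0.47 to 1.23 for L1Md_F and 0.11 to 0.57 for L1Md_F2. With TMM scaling, 17 names passed, 6 young and 11 older, where 8.52% of all names were called higher and 3.15% lower.

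The 2 arms share no library. With TMM scaling all 6 young names had a negative fold change in the knockdown and a positive one in the overexpression, as did 15 of the 33 older names. With the deposited scaling these counts were 5 of 6 and 3 of 33. Across the 39 names, which share libraries and were scaled together within an arm, Pearson's r between the 2 fold changes was -0.60 with the deposited scaling, and it was 0.05 over the 33 older names alone.

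**Figure D4:**
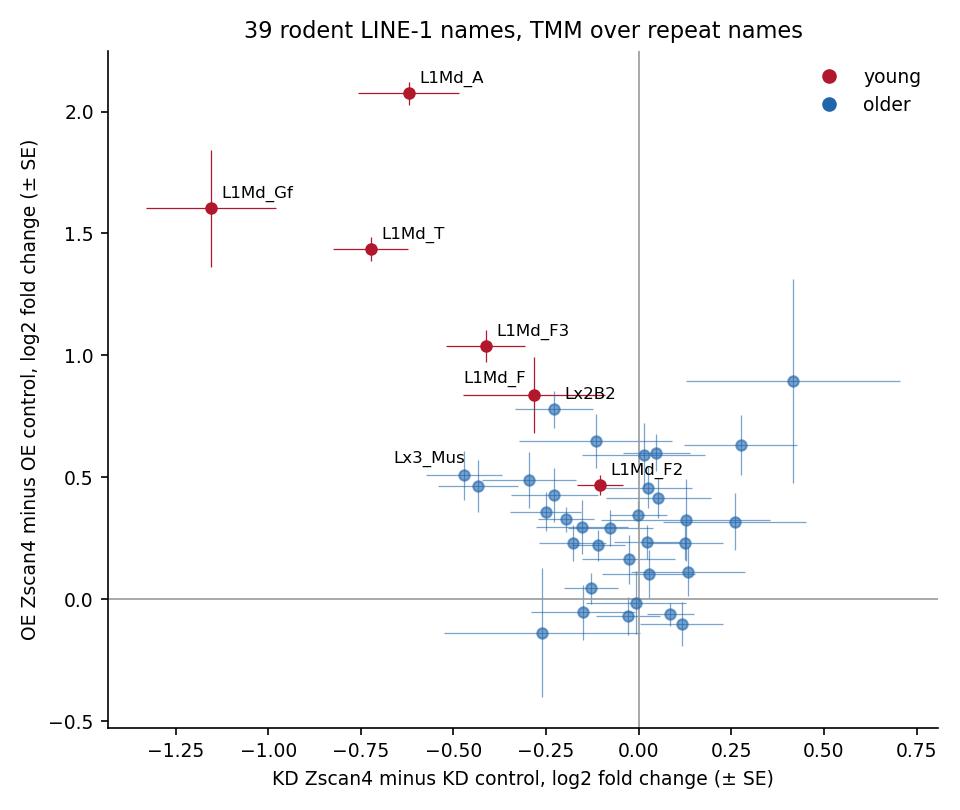
Log2 fold change of OE Zscan4 over OE control (vertical axis) against that of KD Zscan4 over KD control (horizontal axis) for the 39 LINE-1 names with TMM scaling, with standard errors as bars and young and older names in separate colours. L1Md_A, L1Md_T and L1Md_Gf lie at the upper left, with log2 fold changes of -0.62, -0.72 and -1.15 in the knockdown and 2.07, 1.44 and 1.60 in the overexpression.

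The retrovirus MERVL, whose RNA marks the 2-cell stage, fell in the knockdown and rose in the overexpression, by more than any of the 6 young LINE-1 names. In the knockdown only L1Md_T and L1Md_Gf of these 6 fell with the deposited scaling, and L1Md_F2 was at 0.15. MERVL-int, its internal part, had 1032 and 1378 normalised reads in KD Zscan4 libraries against 5599 and 5211 in KD control libraries (log2 fold change -2.18; limma adjusted p = 1.85e-13). It had 7862 and 7256 in OE Zscan4 libraries against 804 and 891 in OE control libraries (3.16; limma adjusted p = 6.77e-46). Its long terminal repeat MT2_Mm had log2 fold changes of -1.74 in the knockdown and 2.45 in the overexpression.

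Cell type markers moved with these results, and their part in the LINE-1 values was not tested. All 5 measured markers of 2-cell-like cells fell in the knockdown, summing to 50.7 and 67.0 normalised reads in KD Zscan4 libraries against 457 to 536 in KD control libraries, with Zfp352 and Duxf3 at 0 in a library. In the overexpression, 3 of 4 measured ones rose, with sums of 552 to 675 in OE Zscan4 against 52.4 to 52.5 in OE control. All 7 primitive endoderm markers fell in the knockdown (216 to 252 in KD Zscan4, 1986 to 2199 in KD control, with Foxa2 at 0 in a library), and 4 of 6 fell in the overexpression (244 to 260 in OE Zscan4, 386 to 393 in OE control). Of the trophectoderm markers, 2 of 3 fell in each arm (113 to 125 in KD Zscan4 against 170 to 193 in KD control, and 97.7 to 101 in OE Zscan4 against 147 to 192 in OE control). Of the fibroblast markers, 2 of 4 rose in the knockdown (321 to 367 in KD Zscan4, 188 to 235 in KD control) and 2 of 3 fell in the overexpression (279 to 309 in OE Zscan4, 726 to 727 in OE control). ES cell markers summed to 126400 to 131743 in KD Zscan4 against 123678 to 125068 in KD control, with 3 up and 2 down, and to 151012 to 152045 in OE Zscan4 against 111785 to 114989 in OE control, with 7 of 8 up.

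Genes known to silence, restrict or bind LINE-1 were followed in 3 lists, of which 86 of 90 genes were measured in each arm. In the knockdown 19 rose and 32 fell, where 17.2% of all 17938 genes rose and 18.5% fell. In the overexpression 43 rose and 11 fell, where 22.3% of all 18292 genes rose and 22.1% fell. Called in either direction were 59.3% of the listed genes in the knockdown, beside 35.7% of all genes, and 62.8% in the overexpression, beside 44.3%. The listed genes were not matched to all genes by read number, so the gap is not read as a result about LINE-1 genes.

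Of 33 measured genes for chromatin silencing, 19 fell and 3 rose in the knockdown (median log2 fold change -0.25, beside 0.01 for all genes), and 16 rose and 2 fell in the overexpression (0.17, beside -0.00). Dnmt3b, which lays down DNA methylation (chromosome 2, 153649450 to 153687730, GRCm38), had 1823 and 1767 normalised reads in KD Zscan4 libraries against 4547 and 4666 in KD control libraries (-1.36 ± 0.05, SE; limma adjusted p = 6.19e-09). In the overexpression Dnmt3b rose (0.29). Dnmt3l, the cofactor of Dnmt3b without enzyme activity, fell by 0.71 on the log2 scale in the knockdown. Dnmt1, which copies methylation at replication, had 4948 and 5198 normalised reads in KD Zscan4 libraries against 7146 and 7577 in KD control libraries (-0.54 ± 0.05, SE; limma adjusted p = 1.00e-05). Its partner Uhrf1 also fell (-0.32; limma adjusted p = 4.92e-04), as did Atf7ip, which stabilises Setdb1 (-0.62). Neither Dnmt1 (0.01) nor Uhrf1 (0.09) passed in the overexpression, although Uhrf1 did so without OE control replicate 1 (0.15; limma adjusted p = 0.0441).

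In the overexpression the largest changes of this list were rises. Smarcad1, a nucleosome remodeller, had 2843 and 2834 normalised reads in OE Zscan4 libraries against 1021 and 1281 in OE control libraries (1.31 ± 0.09, SE; limma adjusted p = 4.04e-09). Dnmt3a, a second enzyme that lays down DNA methylation, rose by 1.14, and Rif1, which acts in replication timing and silencing, by 0.95. In the knockdown Dnmt3a fell (-0.32). Trim28, the corepressor that zinc finger proteins bring to repeats, had 47725 and 45577 normalised reads in OE Zscan4 libraries against 26810 and 26627 in OE control libraries (0.80 ± 0.08, SE; limma adjusted p = 2.12e-07). In the knockdown Trim28 fell by 0.21 (limma adjusted p = 0.00763), which did not pass with either KD control library left out (limma adjusted p of 0.0966 without replicate 1 and 0.196 without replicate 2). Setdb1, the histone methyltransferase recruited by Trim28, rose in the overexpression (0.46) and did not pass in the knockdown (-0.01; limma adjusted p = 0.893).

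Of 35 measured genes that act on LINE-1 RNA or its insertion, 9 rose and 8 fell in the knockdown, and 14 rose and 8 fell in the overexpression, with medians of 0.01 and 0.14. Mov10, a helicase that restricts LINE-1, had 1441 and 1515 normalised reads in KD Zscan4 libraries against 3024 and 3005 in KD control libraries (-1.03 ± 0.06, SE; limma adjusted p = 9.77e-08). Zc3hav1, the zinc finger antiviral protein, had 806 and 888 in KD Zscan4 libraries against 371 and 393 in KD control libraries (1.15 ± 0.08, SE; limma adjusted p = 8.70e-07). Mael, of the germline piRNA pathway, rose in the knockdown (0.53) and fell in the overexpression (-0.86). Ercc4, part of a nuclease that trims LINE-1 integration intermediates, fell in the knockdown (-0.51) and rose in the overexpression (0.84). Dgcr8, the microprocessor subunit that binds LINE-1 RNA, rose in the overexpression (1.27 ± 0.08, SE; limma adjusted p = 1.41e-09), as did Hnrnpu, a nuclear RNA-binding protein (1.05).

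Of 18 measured binding partners and activators, 7 rose and 5 fell in the knockdown (median -0.02), and 13 rose and 1 fell in the overexpression (0.38). L1td1, an ES cell RNA-binding protein descended from a LINE-1 ORF1 (chromosome 4, 98726734 to 98738480, GRCm38), had 11897 and 12206 normalised reads in OE Zscan4 libraries against 5166 and 5513 in OE control libraries (1.17 ± 0.07, SE; limma adjusted p = 4.45e-10). In the knockdown it had 9046 and 11018 in KD Zscan4 libraries and 11212 and 10987 in KD control libraries and did not pass (-0.15; limma adjusted p = 0.134). L1td1 was at -0.011 without KD Zscan4 replicate 1 and passed without KD Zscan4 replicate 2 (-0.30; limma adjusted p = 1.13e-05). Ncl, the nucleolar protein nucleolin that works with LINE-1 RNA in ES cells, rose in both arms (0.66 in the knockdown, 0.68 in the overexpression). The zinc finger factor Zfp281 also rose in both (0.62 and 0.85). Tet3, which oxidises methylcytosine, fell in both arms (-0.76 and -0.81). Tet2, of the same enzyme family, fell in the knockdown (-0.56) and rose in the overexpression (1.02). Topoisomerase Top1 rose in both arms (0.28 and 0.89). Parp1, the poly(ADP-ribose) polymerase, rose in the knockdown (0.62).

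Position on 1 chromosome moved with some of these genes. In the knockdown, 816 genes of chromosome 1 had a median log2 fold change of 0.54, against medians of -0.07 to 0.02 for the 18 other autosomes. Of the 5 listed genes on chromosome 1, Ncl, Parp1, Mael and Zfp281 rose in the knockdown, and Hnrnpu did not pass (0.09). Away from chromosome 1, 15 listed genes rose and 32 fell of 81. In the overexpression, chromosome 11 had a median of -0.33, against -0.03 to 0.10 for the 18 other autosomes. Of its 5 listed genes Suz12, Brca1 and Tex19.1 fell, 3 of the 11 falls in that arm. The part of chromosome-wide shifts in these values, or in LINE-1 copies on those chromosomes, was not tested.

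**Figure D5:**
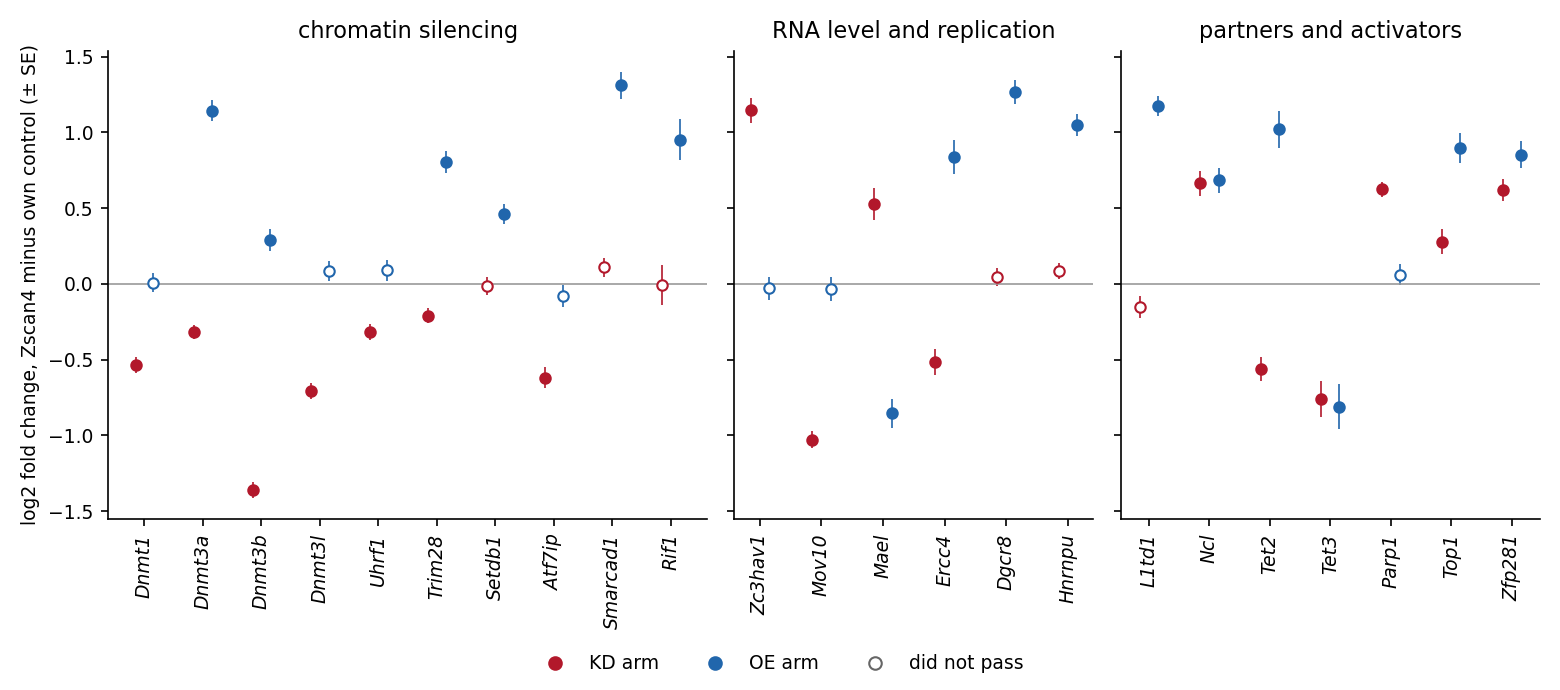
Log2 fold change with its standard error for the named genes that silence, restrict or bind LINE-1, in 3 panels by list, in the KD arm (KD Zscan4 minus KD control) and the OE arm (OE Zscan4 minus OE control), with open points where the limma test did not pass. Dnmt3b and Mov10 lie lowest in the knockdown at -1.36 and -1.03, and Smarcad1, Dgcr8 and L1td1 lie highest in the overexpression at 1.31, 1.27 and 1.17.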

How the data were processed

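RNA-seq of 8 libraries in 4 groups of 2, grouped by their titles, was used. Per the submitters' processing notes, cutadapt, HISAT2, featureCounts, DESeq2 and the mm10 build were used, with no versions given. Each arm had 1 table of genes and 1 of repeat names, in which the authors deposited signal values, which are read numbers over a single size factor for each library. Multiplied back, the values lay within 0.01 of whole numbers in 100% of cases. No count test was run on repeats, because the factor of 2 libraries is read from values that may not include a single read, and recovered reads served for other scalings, limma-voom, depths and the counting intervals of shares.

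Values were fitted as log2(value + 1) with limma-trend (limma 3.58.1, R 4.3.3), two-sided, 2 against 2 libraries, all rows of a table tested, with Benjamini-Hochberg adjustment and a false discovery rate of 0.05. Fold changes are on that scale, which understates those of low values. Standard errors are those of limma, which draws the variance of each row towards a trend over all rows. With the deposited scaling in the overexpression, L1Md_A, L1Md_T and Lx8 all had a standard error of 0.208. TMM factors came from edgeR 4.0.16. DESeq2 1.42.0 on recovered gene reads was an alternative for the genes. Gene positions are those of GENCODE M21 (GRCm38).

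Members and lists were chosen with earlier results of these data known. Named were all young names, per arm up to 8 called older names of largest change, the 3 older names of highest signal, MERVL-int and MT2_Mm, and per gene list up to 4 called genes of largest change, with L1td1, Dnmt1, Uhrf1, Trim28, Setdb1 and Ncl whatever their result. Suz12, Brca1 and Tex19.1 were named after their values were seen. The alternatives were other scalings, pseudocounts, a minimum mean of 20, limma-voom, a replicate block, each library left out, and F types counted as older. Libraries had 20552 to 37647 LINE-1 reads. The young share of these is known to within 0.674 percentage points of counting error, if the recovered unit is a single read.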

Additional observations from a re-analysis of the deposited data

How the results depend on the processing

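L1Md_A kept its rise in the overexpression in all 17 alternatives (log2 1.88 to 2.24), and MERVL-int its call in both arms. The knockdown falls were 4 with TMM scaling, 6 with median-of-ratios scaling over repeat names and 4 with limma-voom, against 2 with the deposited scaling, and 0 to 4 with a library left out (2 to 12 with TMM scaling: 6 and 12 without KD Zscan4 replicate 1 or 2). Knockdown rises numbered 3 with a pseudocount of 5, 3 with a minimum mean of 20, 0 to 16 with a library left out, and 1 with TMM scaling without KD Zscan4 replicate 1. Overexpression rises numbered 25 with TMM scaling, 22 with median-of-ratios and 25 with limma-voom, against 6, and 1 to 33 with a library left out (6 to 27 with TMM: 22 and 27 without OE control replicate 1 or 2). The number of overexpression falls moved only without OE control replicate 1, and did so on either scaling. Names with different effects in the arms numbered 17 with TMM scaling and 17 with median-of-ratios, against 5, and 4 to 9 with a library left out. With F types counted as older, the young-minus-older gap became -0.67 (knockdown) and 1.28 (overexpression). Leaving out a library gave gaps of -0.62 to -0.34 in the knockdown and 0.86 to 0.94 in the overexpression. The young share difference with F types as older was -7.26 points in the knockdown and 12.2 points in the overexpression. In the knockdown this difference, with F types as young, ran from -8.25 to -5.22 points with a library left out.

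In the knockdown, L1Md_F2 changed sign with TMM scaling (-0.11), median-of-ratios (-0.11), limma-voom (-0.10), without KD Zscan4 replicate 2 (-0.0055), and with TMM scaling without a library (-0.17, -0.12, -0.093 and -0.036), against 0.31 without KD Zscan4 replicate 1. L1Md_F changed sign without KD Zscan4 replicate 1 (0.35; 0.011 with TMM scaling) and without KD control replicate 1 (0.061), with -0.41 without KD Zscan4 replicate 2 (-0.58 with TMM scaling), and L1Md_F3 without KD Zscan4 replicate 1 (0.075), with -0.39 without KD Zscan4 replicate 2 (-0.56 with TMM scaling). Setdb1 in the knockdown was 0.015 and 0.049 without a library (lowest -0.074), and Dnmt1 in the overexpression -0.0072 with TMM over genes and -0.0026 without OE Zscan4 replicate 1 (highest 0.018); none of these genes passed. The cause of these changes was not tested. No count of listed genes moved by over 1.5 times.

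The replicate numbers did not pair the libraries (correlation of deviations over repeat names 0.02 in the knockdown, -0.05 in the overexpression). With the replicate as a block, the count of LINE-1 falls in the knockdown moved. L1Md_F2 was at -0.11 in the knockdown with the block and TMM scaling. In the overexpression fewer LINE-1 names rose with the block and TMM scaling than with TMM alone. L1Md_F did not pass in that fit with the block (limma adjusted p = 0.127). Counts with the block are not given, because the share of all names called in those fits was not computed. With the block and the deposited scaling, L1Md_T did not pass in the knockdown (limma adjusted p = 0.0638) and L1td1 did (0.036). The combinations with TMM scaling were chosen after seeing the data. DESeq2 and edgeR count tests on repeat names were not run, since the recovered unit may not be a single read in every library. Depth limits the low names most, L1Md_Gf having 20 reads in 1 OE control library.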
